A study of Prunus sibirica with 6 samples.

Results

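The MYB-related family of the Siberian apricot (Prunus sibirica) flower bud holds 61 of the 1508 transcript clusters that the authors annotated as transcription factors or other regulators. Its members were all clusters listed as MYB-related and not also as MYB, less those whose Swiss-Prot gene name was one of a list of numbered MYB genes, GAM1, LHY, CCA1 or a MYB3R or RVE name. Of 74 MYB-related clusters, 2 were also listed as MYB and 11 carried an excluded name. RNA-seq was run on buds at the labelled microspore stage, with 3 bud samples from clone No. 1, which is male sterile, and 3 from clone No. 60, which is male fertile. Each group is thus 1 clone, and male sterility and every other genetic difference between the clones were compared together. The labels do not say whether the bud samples came from separate trees, so the p-values below measure the spread between these samples, which may be technical.

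MYB proteins bind DNA through repeats of a helix-turn-helix fold, and plant MYB-related proteins usually carry 1 such repeat or an incomplete set, where the R2R3 class carries a pair. Among them are the small RADIALIS proteins and the DIVARICATA proteins, which oppose each other in the shaping of the snapdragon flower. Others are CAPRICE-type repressors of hair cell fate, telomere-repeat binding proteins and SANT-domain subunits of chromatin complexes, the SANT domain being a relative of the MYB repeat. Gene names are taken from the authors' top Swiss-Prot match, of which 37 were Arabidopsis thaliana proteins, and 5 members had no Swiss-Prot hit. By name 25 of the 61 members resemble R2R3 factors, and 14 of these 25 carried the Pfam label SLIDE (a SANT-like domain), against 3 of the other 36. No sequences are shown, because the clusters' sequences are not used here, and cluster positions are not given for the same reason.

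Levels are given as FPKM as deposited, which scales fragments to cluster length and library size. Fold changes come from edgeR's quasi-likelihood test on the authors' estimated read counts, scaled by TMM (trimmed mean of M-values) within the regulator table, and are called at an adjusted p of 0.05. The regulator counts summed to between 957196 in sterile replicate 1 and 1424835 in fertile replicate 2, and the whole libraries, as implied by counts, lengths and FPKM, to between 16.2 and 25.3 M fragments. Scaling by those implied totals moved the median over all regulators up by 0.14 on the log2 scale relative to TMM, and FPKM, which is also scaled to the whole library, places sterile values higher than the fold changes do. Fertile replicate 1 stood apart from its group. The chi-square per degree of freedom of its counts against the other fertile libraries was 11.5 and 12.3, against 1.57 to 1.77 for the other pairs within a clone, so no pair agreed within sampling noise. Of the 10 flower identity gene names looked for, 6 were found, at a summed level of 319 to 337 FPKM in sterile and 305 to 323 FPKM in fertile buds, and AG, AGL8, AP3 and PI named no cluster. Markers of the tapetum (the anther layer that feeds pollen) summed to 199.9 to 208 FPKM in sterile and 80.6 to 84.9 FPKM in fertile buds over 5 of 8 names, with none of these 7 clusters at 0 in all libraries. The vascular and meristem markers summed to 49.2 to 50.9 FPKM in sterile and 38.6 to 39.7 FPKM in fertile buds over 4 of 5 names, and GLK2, the green tissue marker found, stood at 11.7 to 14.2 FPKM in sterile and 10.2 to 11.3 FPKM in fertile buds. Whether such differences in tissue makeup have a part in the values below was not tested, and in whole buds fewer cells of a type and less RNA per cell cannot be told apart.

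Among the MYB-related members, the sterile buds had more RNA of small RADIALIS-like genes and of several DIVARICATA and MYB1R-type genes, and less of the most abundant RADIALIS gene and of the MYB4 and MYB6 repressor types. Of the 61 members, 54 had enough counts to be tested, and 14 of these were higher and 17 lower in the sterile buds, with 23 not called. Together 31 of 54 were called, which is 57.4%, against 57.0% of the 1380 regulators tested. By direction the shares were 25.9% higher and 31.5% lower for the members, beside 28.0% and 28.9% for all regulators, whose split under the implied totals was 567 higher and 297 lower, and that of the members 14 and 15. The members' shares lie near those of all regulators. The median log2 fold change was -0.02 over the members and 0.01 over all regulators, and the median size of the change was 0.29 and 0.31. At a change of 2-fold or more, 9 members were called, or 16.7% against 13.4% of all regulators. Of these 3 were higher and 6 lower, or 5.56% and 11.1%, beside 5.72% and 7.68% of all regulators. In FPKM the 3 sterile libraries lay apart from the 3 fertile ones in 35 of the 54 tested members, or 64.8%, against 68.6% of all regulators.

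**Figure D1:**
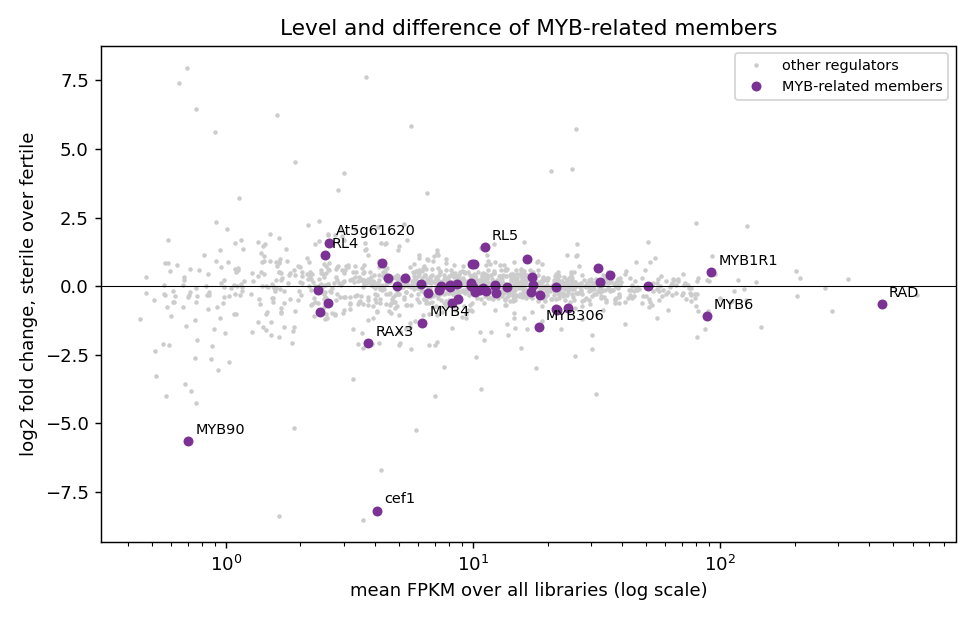
Level and difference of the MYB-related members. The x axis gives the mean FPKM over all 6 libraries on a log scale and the y axis the log2 fold change, sterile over fertile, by edgeR; purple points are the 54 tested members and grey points the other tested regulators. The members run from -8.18 to 1.59 on the y axis, where all regulators run from -8.51 to 7.93, with RAD at the far right, RL5, RL4 and At5g61620 above 1, and cef1 and MYB90 lowest.

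The members ranged in level from 0.217 to 450.3 FPKM as means over all libraries, with a median of 9.78 FPKM. Only 4 stood above 50 FPKM and 8 below 1 FPKM. The 4 were RAD, MYB1R1, MYB6 and 1 of the KUA1 clusters, and their order by mean level was the same as listed here. MYB1R1 and MYB6 stood at 91.6 and 88.1 FPKM over all libraries, but their order turned between the clones, with MYB1R1 the higher in the sterile and MYB6 the higher in the fertile buds. The spread between replicates was small, with a median coefficient of variation over the tested members of 5.15% in sterile and 8.15% in fertile buds.

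The RADIALIS-like group held 3 clusters, of which the abundant one was lower and the scarcer pair higher in the sterile buds. RADIALIS encodes a small single-repeat protein that in snapdragon marks the dorsal side of the flower and competes with DIVARICATA for its partner proteins. RAD (Cluster-6671.11443) stood at 371, 377 and 369.5 FPKM in the sterile libraries and at 586, 492 and 507 FPKM in the fertile ones. The groups did not overlap, and the highest value belonged to fertile replicate 1. Only 1 of the 1508 regulators had a higher mean level. RAD fell by 0.67 ± 0.07 on the log2 scale (± SE, edgeR adjusted p = 4.71e-07), to a mean of 372 ± 4.12 FPKM in sterile buds, against 528 ± 50.3 FPKM in fertile buds (SD, n = 3 each). With any 1 library left out the log2 fold change lay between -0.73 and -0.56. It took 31.1% to 31.6% of the summed FPKM of all members in sterile libraries and 38.5% to 42.0% in fertile libraries. The sum of the other members was 814 to 822 FPKM in sterile and 784 to 809 FPKM in fertile libraries, whereas with RAD it was 1184 to 1193 FPKM in sterile and 1276 to 1394 FPKM in fertile libraries.

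RL5 (Cluster-6671.58), named for an Arabidopsis RADIALIS-like gene, stood at 17.9, 17.4 and 14.9 FPKM in the sterile libraries and at 5.36, 5.38 and 5.95 FPKM in the fertile ones. Every sterile value was more than 2-fold above every fertile value. RL4 (Cluster-3325.0) stood at 3.28, 3.73 and 3.66 FPKM in sterile and 1.91, 1.40 and 1.07 FPKM in fertile libraries, again with no overlap. By edgeR RL5 was higher by 1.41 ± 0.14 (adjusted p = 1.83e-07) and RL4 by 1.12 ± 0.20 (adjusted p = 0.000122) on the log2 scale, or 2.66-fold and 2.18-fold. Leaving out a library moved RL4 between 0.94 and 1.38. The pair summed to 18.5 to 21.2 FPKM in sterile and 6.78 to 7.27 FPKM in fertile libraries, small beside RAD in both clones. The best nucleotide hits of the 3 clusters in Prunus mume are different genes, RADIALIS-like 1 for RAD, 3 for RL5 and 4 for RL4.

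**Figure D2:**
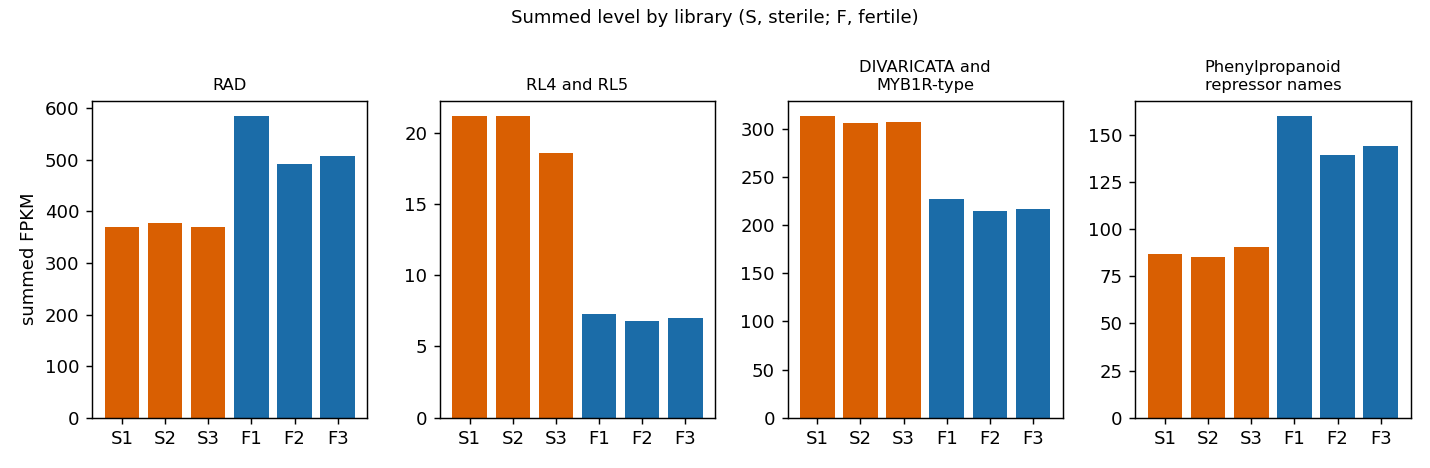
Summed FPKM by library for RAD, for RL4 and RL5 together, for the 10 DIVARICATA and MYB1R-type members and for the 4 members named as phenylpropanoid repressors. Bars are single libraries (S1 to S3 sterile, F1 to F3 fertile) and start at 0. The sterile bars are lower for RAD and for the repressor names and higher for RL4 with RL5 and for the DIVARICATA and MYB1R-type members, with no overlap between clones in any panel. The groups shown were drawn up with earlier results of these data known, so the lack of overlap is no separate result. Taken singly, 68.6% of all tested regulators do not overlap.

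Among the DIVARICATA and MYB1R-type members the calls were mostly higher. DIVARICATA gives the ventral petals of snapdragon their identity, and its relatives MYB1R1, KUA1, SRM1 and the rice MYBS proteins act in drought, cell expansion, salt and sugar responses. Of 10 tested members 5 were higher, 0 lower and 5 not called in the sterile buds by edgeR, beside 28.0% higher and 28.9% lower of all 1380 regulators. The counts of the 10 were the same with the implied totals, which called 567 regulators higher and 297 lower, and without fertile replicate 1. DESeq2 also called 5 higher and 0 lower. At an unadjusted p under 0.05 edgeR had 1 lower, MYBS3 (Cluster-6671.8093), at -0.20 ± 0.08 with an adjusted p of 0.0533. It was called lower under 5 of 14 alternatives, namely DESeq2 size factors, no low-count filter, the replicate block, and without fertile replicate 2 or fertile replicate 3. The median log2 fold change of the 10 was 0.22, beside 0.01 for all regulators. Their FPKM summed to 309 ± 4.25 in sterile and 219.8 ± 6.85 in fertile buds (SD, n = 3 each).

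The most abundant of them, MYB1R1 (Cluster-6671.11217), stood at 115, 107 and 115 FPKM in the sterile libraries and at 73.4, 70.5 and 68.8 FPKM in the fertile ones. Its lowest sterile value was well above its highest fertile value. MYB1R1 was higher by 0.52 ± 0.06 on the log2 scale (edgeR adjusted p = 2.8e-06). The DIVARICATA cluster with the higher level (Cluster-6671.5688) stood at 44.8, 41.3 and 41.4 FPKM in sterile and 29.5, 27.7 and 29.2 FPKM in fertile libraries. It was higher by 0.42 ± 0.07 (adjusted p = 4.2e-05), while the second DIVARICATA cluster (Cluster-6671.14355) was not called, at 22.6 ± 1.17 FPKM in sterile and 20.6 ± 0.80 FPKM in fertile buds and a log2 fold change of -0.02 ± 0.07. KUA1, a repressor of peroxidase genes in Arabidopsis leaf growth, named a similar pair. Cluster-6671.15479 stood at 40.7, 42.4 and 39.2 FPKM in sterile against 23.4, 23.5 and 23.01 FPKM in fertile libraries and was higher by 0.66 ± 0.06 (adjusted p = 1.23e-07). The other KUA1 cluster, Cluster-6671.17898, stood at 52.7, 52.6 and 55.1 FPKM in sterile and 49.0, 46.9 and 49.7 FPKM in fertile libraries. Its FPKM groups lay apart by a small margin, its log2 fold change by edgeR was -0.01 ± 0.06 and not called, and on the FPKM scale limma gave 0.14 (adjusted p = 0.0299).

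The largest difference in the group was that of At5g61620 (Cluster-2643.0), a probable MYB factor of Arabidopsis that matches MYB1R1 of Prunus mume. It stood at 3.6, 4.44 and 4.01 FPKM in the sterile and at 1.22, 1.19 and 1.19 FPKM in the fertile libraries. The groups were well apart and the fertile values nearly equal. The log2 fold change was 1.59 ± 0.18 (edgeR adjusted p = 1.05e-06), a 3.0-fold difference, and the lowest value under any alternative was 1.19, on the log2(FPKM + 1) scale, which understates changes of low clusters. MYBS1, which in rice activates amylase genes under sugar starvation, is named here although its values were seen first, and rose by 0.80 ± 0.09 to 13.2 ± 0.57 FPKM in sterile buds, against 6.86 ± 0.36 FPKM in fertile buds. SRM1, at 0.02 ± 0.11, and the second MYBS3 cluster, at -0.13 ± 0.21, were not called.

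**Figure D3:**
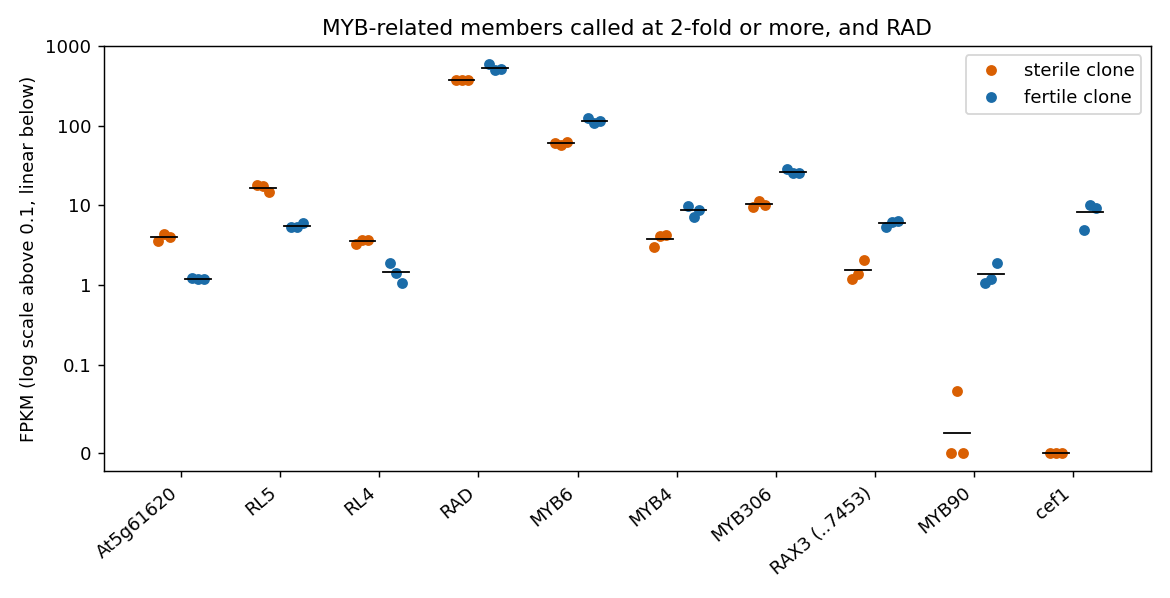
FPKM in each library of the 9 members called at a change of 2-fold or more, and of RAD, on an axis that is logarithmic above 0.1 and linear below. Orange points are sterile and blue points fertile libraries, and black lines are means of 3. The clones do not overlap in any of these members, and all 3 sterile values of cef1 and 2 of MYB90 are at 0. The 9 were chosen by calls from these same libraries, so the lack of overlap is no separate result. Of all tested regulators 68.6% do not overlap.

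The R2R3-like names gave the larger share of the lower calls. Of 18 tested members of this kind 10 were lower, 2 higher and 6 not called, and their median was -0.29 on the log2 scale. Over all tested regulators 28.9% were lower and 28.0% higher. Of the 36 other members 7 were lower, 12 higher and 17 not called, with a median of 0.02. These name groups were drawn up after the values had been seen, and the difference between them has no test. With the implied totals 9 of the 18 were lower and 2 higher, beside 297 lower and 567 higher of the 1380 regulators. The remaining 7 members of this kind were too scarce to test.

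Repressors of the phenylpropanoid pathway, which supplies lignin and flavonoids, were represented by MYB3, MYB4, MYB6 and the maize protein Zm38. By edgeR 3 of these 4 were lower and 0 higher, also by DESeq2 and with 0 higher at an unadjusted p under 0.05. The shares over all tested regulators were 28.9% lower and 28.0% higher. MYB6 (Cluster-6671.13474) stood at 60.8, 58.0 and 62.4 FPKM in the sterile and at 125, 109 and 113 FPKM in the fertile libraries. The groups lay far apart, and MYB6 fell by 1.09 ± 0.07 on the log2 scale (edgeR adjusted p = 1.01e-09). MYB4 (Cluster-6671.612), whose best nucleotide hit is a WER-like gene of Prunus mume, stood at 3.0, 4.09 and 4.24 FPKM in sterile and 9.94, 7.17 and 8.85 FPKM in fertile libraries. It fell by 1.34 ± 0.17 (adjusted p = 2.77e-06), with no overlap between groups. MYB3 was called lower at -0.25 ± 0.09, with 11.9 ± 0.56 FPKM in sterile and 12.8 ± 0.48 FPKM in fertile buds and overlapping groups, and its call was lost with the implied totals and without sterile replicate 1. Zm38 was not called, at -0.07 ± 0.11. The 4 members summed to 87.4 ± 2.65 FPKM in sterile and 147.9 ± 11.01 FPKM in fertile buds (SD, n = 3 each).

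Members named for activators of flavonoid and anthocyanin genes went both ways, as all tested regulators did (28.0% higher, 28.9% lower). Of 6 tested members with such names 2 were higher, 3 lower and 1 not called. The near absence of MYB90 from the sterile buds was the largest difference among them. MYB90 (Cluster-6671.14699) is named for an anthocyanin activator of Arabidopsis, and its best nucleotide hit is a MYB10 gene of plum. The name is doubtful, as the Swiss-Prot E-value was 9.6e-06. MYB90 had 0, 1 and 0 counts in sterile libraries, against 21, 25 and 35 counts in fertile libraries. The fertile level was 1.05, 1.19 and 1.91 FPKM, so the gene was scarce in both clones. Scaled for library size, the ratio of fertile to sterile counts was 65.9, with an exact 95% binomial interval of 11.5 to 2634 that covers counting error only. TT2, which drives tannin synthesis in the Arabidopsis seed coat, stood at 16.6, 15.2 and 17.4 FPKM in sterile and 30.5, 25.4 and 26.03 FPKM in fertile libraries and fell by 0.89 ± 0.10 (edgeR adjusted p = 4.57e-07). The groups did not overlap. MYB111, a flavonol activator, was higher by 0.84 ± 0.12 (adjusted p = 1e-05), at 5.70 ± 0.21 FPKM in sterile against 2.88 ± 0.37 FPKM in fertile buds. A cluster named for maize C1 and matching MYB114-like of Prunus mume (Cluster-6671.9562) was higher by 0.81 ± 0.12 (adjusted p = 2.38e-05), at 13.1 ± 0.78 FPKM in sterile against 6.65 ± 0.57 FPKM in fertile buds. A second C1 cluster, Cluster-4787.0, which matches a TT2-like gene, was not called (0.11 ± 0.12), though limma on log2(FPKM + 1) called it higher. MYB114 was lower at -0.33 ± 0.06, and the best Prunus hits of this cluster are uncharacterized. Apart from MYB90, the members of this paragraph were chosen after their values were seen.

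Of 8 tested members with other R2R3-like names 4 were lower, 0 higher and 4 not called by edgeR, with 0 higher also by DESeq2 and at an unadjusted p under 0.05. All tested regulators were lower in 28.9% and higher in 28.0%. RAX3 (Cluster-6671.7453), named for an Arabidopsis factor of axillary meristems, stood at 1.21, 1.39 and 2.08 FPKM in the sterile and at 5.36, 6.12 and 6.46 FPKM in the fertile libraries. It fell by 2.06 ± 0.18 on the log2 scale (edgeR adjusted p = 2.08e-08), a 4.18-fold difference between groups that lay well apart. The other RAX3 cluster, which matches a MYB36-like gene of Prunus mume, was not called, at 12.9 ± 0.58 FPKM in sterile and 11.6 ± 1.33 FPKM in fertile buds. MYB306 (Cluster-6671.8324), named for a snapdragon factor, stood at 9.61, 11.4 and 10.1 FPKM in sterile and 28.4, 25.4 and 25.6 FPKM in fertile libraries. MYB306 fell by 1.5 ± 0.08 (adjusted p = 7.58e-11), and its lowest fertile value was more than 2-fold above its highest sterile value. Chosen after their values were seen, MYB117, which acts in organ boundaries of Arabidopsis, fell by 0.81 ± 0.06 (18.7 ± 0.49 FPKM in sterile against 29.6 ± 0.57 FPKM in fertile buds), and MYB305 by 0.95 ± 0.15 (1.76 ± 0.11 FPKM in sterile against 3.06 ± 0.48 FPKM in fertile buds). Both clusters named WER, an Arabidopsis factor of root epidermis, were not called, with log2 fold changes of 0.01 ± 0.11 and -0.02 ± 0.11.

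ETC1, the one member of the CAPRICE type, is a small repressor that moves between epidermal cells and competes with R2R3 factors for bHLH partners in Arabidopsis. It stood at 8.19, 7.90 and 6.32 FPKM in the sterile and at 8.48, 7.53 and 5.43 FPKM in the fertile libraries. The groups overlapped fully, and the log2 fold change of -0.12 ± 0.19 was not called. Among 4 clusters outside the family that matched a list of epidermal cell fate names, edgeR called 3 lower and 0 higher, as did DESeq2 and an unadjusted p under 0.05. Over all tested regulators 28.9% were lower and 28.0% higher. Of the names found only GL3 is a bHLH factor, so the list is not one of ETC1 partners alone. The bHLH partner GL3 stood at -0.38 ± 0.08 (adjusted p = 0.000951) and the homeodomain factor GL2 at -0.36 ± 0.07 (adjusted p = 0.000261). One of a pair of TT2 clusters of the MYB family was at -0.82 ± 0.18 (adjusted p = 0.000782). The call of GL3 was lost under 3 of 14 alternatives.

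**Figure D4:**
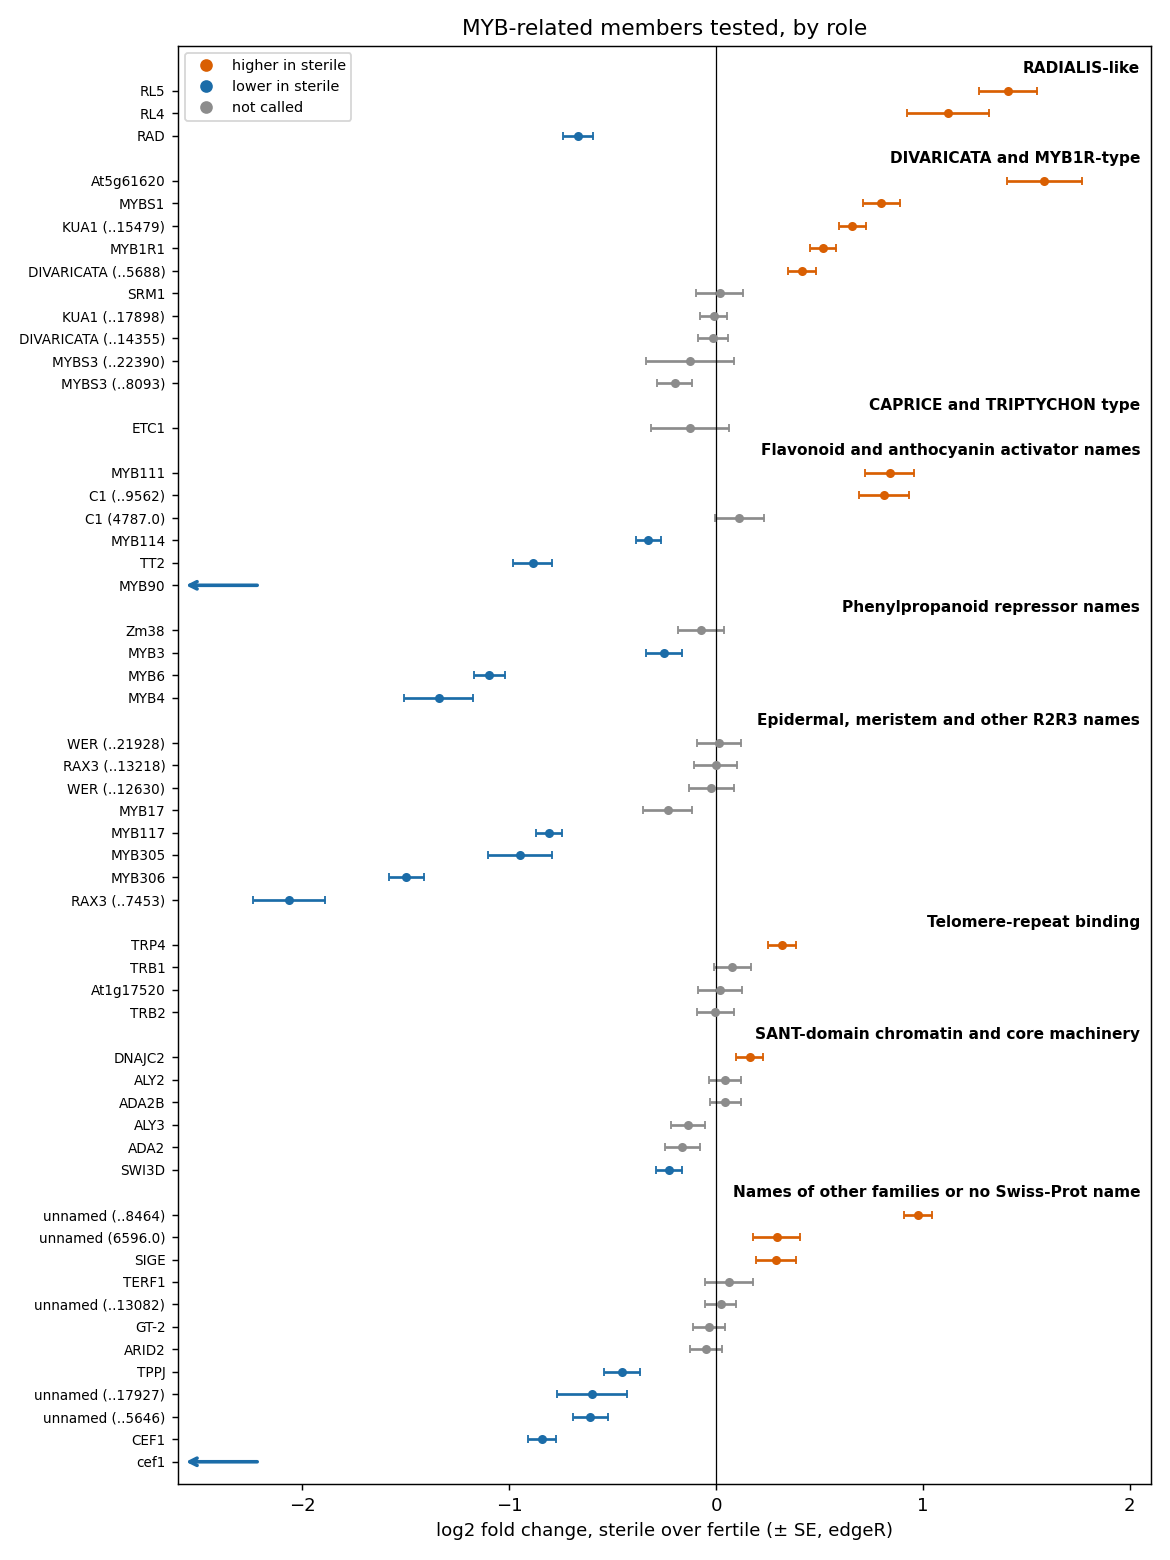
Log2 fold change, sterile over fertile, with its standard error, for the 54 tested members by role. Orange points were called higher, blue points lower and grey points not called, and arrows mark MYB90 and cef1, whose fitted values lie beyond the axis. In the R2R3-like name groups 10 of 18 are lower, and in the group with names of other families or none 5 of 12. The DIVARICATA and MYB1R-type group has 5 higher and 0 lower. Over all tested regulators 28.9% were lower and 28.0% higher.

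The telomere-repeat binding members had log2 fold changes between -0.0036 and 0.32. By edgeR 1 of 4 was higher, 0 lower and 3 not called, beside 28.0% higher and 28.9% lower of all tested regulators. DESeq2 and an unadjusted p under 0.05 gave the same counts for the 4 members. Telomere-repeat binding proteins bind the repeats of chromosome ends, and the TRB type also sits at gene promoters in Arabidopsis. TRP4 (Cluster-6671.18048) stood at 19.4, 20.1 and 20.4 FPKM in the sterile and at 13.03, 14.6 and 15.9 FPKM in the fertile libraries and was higher by 0.32 ± 0.07 (edgeR adjusted p = 0.000755), with no overlap. Its name is doubtful, as the Swiss-Prot E-value was 4.1e-07, against 2.3e-29 or lower for the members not called. Its best Prunus hits are uncharacterized. TRB1 stood at 6.36, 7.27 and 6.15 FPKM in sterile and 4.94, 5.85 and 6.23 FPKM in fertile libraries. TRB2 stood at 10.4, 10.9 and 9.47 FPKM in sterile and 9.92, 8.68 and 9.28 FPKM in fertile libraries. The groups of both overlapped, and their log2 fold changes were 0.08 ± 0.09 and -0.0036 ± 0.09. The cluster named At1g17520 (telomere repeat-binding factor 4), at 5.46, 4.86 and 5.29 FPKM in sterile and 4.02, 5.27 and 4.63 FPKM in fertile libraries, had overlapping groups and was not called (0.02 ± 0.11). CLF, a histone methyltransferase of the Polycomb complex with which TRB proteins work, was the 1 cluster found for their partner list. It was called lower at -0.19 ± 0.07, and 9 of 14 alternatives lost that call, among them leaving out fertile replicate 2 or 3 or any 1 sterile library.

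The SANT-domain subunits of chromatin and core machinery had log2 fold changes between -0.23 and 0.16. By edgeR 1 of 6 was higher, 1 lower and 4 not called, beside 28.0% higher and 28.9% lower of all tested regulators. DNAJC2, a ribosome-bound chaperone with SANT domains, stood at 37.1, 35.4 and 35.3 FPKM in the sterile and at 26.7, 29.5 and 31.0 FPKM in the fertile libraries. Its groups lay apart in FPKM, and it was called higher at 0.16 ± 0.06 (edgeR adjusted p = 0.0406), a call lost under 7 of 14 alternatives, among them leaving out fertile replicate 2 or any 1 sterile library. SWI3D, a core subunit of SWI/SNF remodelling complexes, stood at 17.4, 16.0 and 16.5 FPKM in sterile and 16.6, 18.3 and 18.0 FPKM in fertile libraries. The groups overlapped, the call was lower at -0.23 ± 0.06 (adjusted p = 0.00569), and it was lost with the implied totals (-0.09). ALY2, related to LIN-9, a subunit of cell-cycle gene complexes of animals, stood at 18.7, 18.2 and 18.6 FPKM in sterile and 13.6, 17.9 and 17.4 FPKM in fertile libraries. ADA2B, an adapter of the histone acetyltransferase GCN5, stood at 13.2, 12.6 and 13.3 FPKM in sterile and 10.2, 12.2 and 11.99 FPKM in fertile libraries. The FPKM groups of both lay apart by a small margin. Neither was called, at 0.04 ± 0.08 for both, nor were the related ALY3 (-0.13 ± 0.08) and ADA2 (-0.16 ± 0.08). Of the 2 acetyltransferase clusters in the partner list, HAG1 (GCN5) was not called at 0.03 ± 0.06, and HAG3, an elongator subunit, was lower at -0.21 ± 0.07, a call lost under 5 of 14 alternatives, among them leaving out sterile replicate 2.

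In all 6 SANT-domain members fertile replicate 1 was the lowest of the fertile libraries, as it was in 43.5% of all tested regulators. Among the 10 DIVARICATA and MYB1R-type members it was the lowest in 0 and the highest in 8, where 37.8% of all regulators had it highest, and it was the highest in all 4 members named as repressors. Without this library the SANT-domain group had 1 higher and 3 lower calls in place of 1 and 1, with ALY3 at -0.23 and ADA2 at -0.22. The family as a whole then had 14 higher and 20 lower calls of 55 tested, in a fit that called 455 higher and 451 lower of all 1387 regulators tested, against 387 and 399 with the library kept. What sets fertile replicate 1 apart was not tested.

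**Figure D5:**
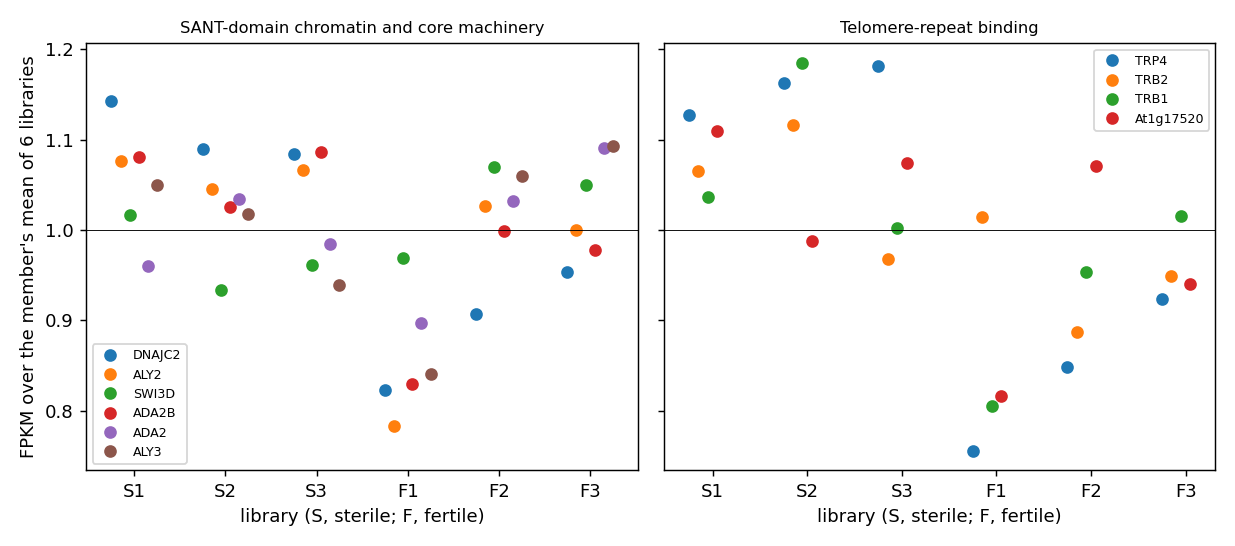
FPKM of each SANT-domain member (left) and telomere-repeat binding member (right) in each library, divided by the member's own mean over the 6 libraries. S1 to S3 are sterile and F1 to F3 fertile libraries, and replicates of a clone have no order. All 6 SANT-domain members and 3 of 4 telomere-repeat binding members are lowest of the fertile libraries in F1.

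The last 12 members carried names of other families or no Swiss-Prot name. Of these 3 were higher, 5 lower and 4 not called, beside 28.0% higher and 28.9% lower of all tested regulators. The short cluster cef1 (Cluster-6671.13712, 469 bases) had 0 counts in every sterile library and 24, 54 and 42 counts in the fertile ones. Its Swiss-Prot name is that of a splicing factor of the fungus Emericella nidulans. It also matches a cef1-like protein of Prunus mume, but it had no nucleotide hit. By a floor of 3 counts over the sterile group it was at least 32.5-fold lower in sterile buds. No other regulator cluster shared the best protein hit of cef1, and without a nucleotide hit a shared one could not be looked for. Among the members only MYB52 and MYB54, both below the filter, shared a best hit with each other. CEF1 (Cluster-6671.11851), an uncharacterized protein of Prunus mume named for a splicing factor of Candida albicans, stood at 16.6, 16.7 and 16.1 FPKM in sterile and 27.9, 27.1 and 25.1 FPKM in fertile libraries. It fell by 0.84 ± 0.07 (edgeR adjusted p = 1.22e-08) with groups well apart. A cluster with no protein name, Cluster-6671.8464, was the largest increase in this set at 0.98 ± 0.07 (adjusted p = 1.13e-09), at 21.6, 23.4 and 22.6 FPKM in sterile and 9.78, 10.1 and 11.2 FPKM in fertile libraries. Both CEF1 and Cluster-6671.8464 lie outside the naming rule and were picked with their values known. Names that point away from MYB proteins were SIGE, a plastid sigma factor (0.29 ± 0.10, called higher, lost without fertile replicate 2 or 3 or sterile replicate 2 or 3), and TPPJ, a trehalose-phosphate phosphatase (-0.46 ± 0.09, lower). GT-2, also listed by the authors as a trihelix factor, ARID2 and the telomere factor name TERF1 were not called, between -0.05 and 0.06.

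The 7 members below the count filter were C1 (Cluster-1539.0), MYB113, MYB52, MYB54, MYB86, MYB93 and MYBAS2, all with R2R3-like names. They had 4 to 45 counts over all 6 libraries, clusters of 337 to 1006 bases against a median of 2253.5 bases for the tested members, and at most 2.20 FPKM in any library. MYB52 had 1 sterile against 8 fertile counts, and in the others the clones' sums differed by at most 3 counts, so no difference was detectable at this depth.

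The authors' deposited table called 4 members higher and 6 lower and left 51 uncalled, beside 90 higher and 97 lower of all 1508 regulators. All 10 were also called here. The 4 were At5g61620 (log2 fold change 1.66 in the authors' deposited table), RL5 (1.48), RL4 (1.19) and Cluster-6671.8464 (1.05). The 6 lower ones of the authors' deposited table were cef1, MYB90, RAX3 (-2.0), MYB306 (-1.43), MYB4 (-1.28) and MYB6 (-1.03). Each of the 10 changed by more than 2-fold there. MYB117 changed less (-0.74) and was left uncalled at a deposited q-value of 3.52e-19. The 10 are thus to be set beside the 9 members called here at 2-fold or more, and not beside the 31 called at any size.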

How the data were processed

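Samples were assigned to clones by their labels. The submitters' processing notes name CASAVA, Bowtie2 and RSEM, without versions. No source used here gives the assembler or the test behind the deposited comparison. The authors deposited estimated counts, many of them fractional, for 1508 regulator clusters in 1625 entries; repeated entries were collapsed. FPKM for each library and cluster lengths were deposited by the authors in the same table, and a further table of 34377 clusters repeats these FPKM. The authors' own log2 fold change and q-value, as the deposited columns are headed, were used for description. Programs of the RSEM type divide reads among similar clusters, so close paralogs or alleles may share reads.

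Rounded counts of all clusters were fitted together with edgeR 4.0.16 (R 4.3.3). The function filterByExpr removed 128 clusters (0.0424% of counts), TMM scaled the libraries, and the quasi-likelihood functions glmQLFit (robust) and glmQLFTest were applied. Adjusted p-values follow Benjamini-Hochberg over 1380 clusters. A standard error is the absolute log2 fold change divided by the square root of F. Implied library totals came from a robust regression of count per FPKM on length. Floors (3 counts) and intervals (95%, exact binomial) cover counting error only. The fits were tested on simulated data.

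The alternatives were DESeq2 size factors, implied totals, DESeq2 1.42.0, no count filter, limma 3.58.1 on log2(FPKM + 1) keeping clusters that reached 1 FPKM in 3 libraries, a pseudocount of 0.1, no FPKM filter, a replicate block and each library left out. Members and lists were chosen with earlier results of these data known. Values in every library are given for members called at 2-fold or more, those with 3 or fewer counts over a clone's libraries and at least 10 over the other's, and the 4 most abundant of each role list matched by name. The flavonoid, repressor, other R2R3 and other-name groups were drawn up once the values were known.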

Additional observations from a re-analysis of the deposited data

How the results depend on the processing

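Over the 14 alternatives the members called higher ran from 11 to 16, those called lower from 15 to 20 and those called at 2-fold or more from 8 to 10. With each library left out the ranges were 11 to 14, 17 to 20 and 9 to 10 for the members, and 318 to 455 higher and 351 to 451 lower for all regulators. Of the 31 called members 0 changed sign under any alternative and 26 kept their call under every one; MYB3, DNAJC2, SWI3D, SIGE and Cluster-6596.0 lost it under 4 to 7, Cluster-6596.0 among others without fertile replicate 2 or sterile replicate 2 or 3. The labels do not say whether the replicate numbers pair the libraries. Deviations of same-numbered libraries correlated at 0.02, 0.03 and 0.01, which cannot exclude a pairing with 3 libraries per clone. With the replicate block 13 members were higher and 18 lower, against 389 and 392 of all regulators. Of the 23 members not called, 20 had the other sign under at least 1 alternative, and MYBS3 (Cluster-6671.8093), MYB17 and ADA2 did not. MYB17 was called lower without sterile replicate 1 or fertile replicate 1. The values follow for the 7 of these 20 whose FPKM is given in every library. With the implied totals ETC1 was at 0.012, KUA1 (Cluster-6671.17898) at 0.13 and TRB2 at 0.13. With limma on log2(FPKM + 1), with or without the FPKM filter, these 3 were at 0.068, 0.14 and 0.13, and with a pseudocount of 0.1 at 0.078, 0.14 and 0.14. With no low-count filter At1g17520 was at -0.012. With a library left out the ranges were -0.29 to 0.030 for ETC1, -0.058 to 0.026 for KUA1, -0.081 to 0.067 for TRB2, -0.029 to 0.14 for TRB1, -0.058 to 0.11 for At1g17520, -0.053 to 0.105 for ALY2 and -0.019 to 0.083 for ADA2B. The cause of these turns was not tested. Depth limits the 7 untested members and the size of the MYB90 and cef1 differences.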
